A study of Gallus gallus with 17 samples.

Results

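The growth hormone and insulin-like growth factor genes were followed across adipose tissue of 3 chicken lines. All probe sets annotated to IGF1, IGF2, IGF1R, GHR, IGFBP2, IGFBP3, IGFBP4, IGFBP5 and IGFBP7 were taken, which gave 12 of the 38535 probe sets on the array and 9 of its 13008 named genes. Each probe set reads 1 transcript through several short probes. The study measured adipose RNA of male birds at 3 weeks of age, on 1 Affymetrix chicken array per sample, and its stated aim was to find pathways tied to leanness. The groups were the Fayoumi line M 5.1 (5 arrays), the Leghorn line GHs 13 (6 arrays) and a broiler line (6 arrays). Fayoumi and Leghorn are lean, and broilers are bred for rapid growth and meat. No group was treated. The labels do not give the fat depot, the diet, or how the broiler line was bred, and they name the replicates biological without describing how the birds were sampled. P-values therefore measure the spread between these samples, and the number of arrays limits the precision.

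Growth hormone binds its receptor, GHR, and in many tissues, the liver above all, this raises transcription of IGF1. IGF1 and IGF2 are small secreted peptides related to insulin, and both signal through the receptor IGF1R. IGF-binding proteins hold IGFs in blood and in the tissue, lengthen their life there and limit or direct their access to the receptor, and some also act on cells without an IGF. In mammals fat cells and their precursors respond to IGF1, since it promotes the differentiation of preadipocytes, and mouse white preadipocytes release IGFBP2 as they mature. IGFBP7 shares the binding domain of the family and binds IGFs weakly.

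The values are log2 expression as deposited, and a difference of 1 on this scale is a doubling of the array signal. Background was set at 2.29, below which 95% of the values of the 80 blank and reporter probe sets lie, pooled over all arrays. The lowest value of the table, 2.26, is a floor shared by 37.1% of all values. An array had 56.0% to 59.1% of the 37693 chicken probe sets above that background. On the first principal component, which held 52.9% of the variance, 5 arrays stood apart, labelled Leghorn 3 and 6 and broiler 2, 3 and 4. ACTB read at its 3' end exceeded ACTB read at its 5' end, a sign of RNA quality, by 1.49 to 1.92 on those 5 and by 1.91 to 2.70 on the remaining 12. On a scale from the other broiler arrays, at 0, to the other Leghorn arrays, at 1, the array labelled Leghorn 2 lay at 0.102 and the array labelled broiler 1 at 1.0, so both went against their labels. Calls on the members are given with and without each set, and so are the differences of Fayoumi from broiler at IGFBP2, IGFBP4 and IGFBP5. The 8 adipocyte markers were above background on all arrays, with a summed log2 level of 17.03 to 17.21 in Fayoumi, 16.50 to 17.21 in Leghorn and 16.86 to 17.20 in broiler. Skeletal muscle markers, 11 of 12 on the array, reached 17.91 on the array labelled Leghorn 1, against 12.33 to 14.40 on the other arrays. In whole tissue, fewer cells of a type and less RNA per cell cannot be told apart.

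In the main fit, of the values as deposited on all 17 arrays without filter or weights, no member passed the test between any pair of lines. Some other ways of processing the same 17 arrays called IGFBP5 or IGFBP2, and these are named below among the alternatives. IGFBP2, a carrier of both IGFs, was higher in Fayoumi than in either other line by a called difference once the 5 arrays that stood apart were left out, 15.6-fold against Leghorn and 9.81-fold against broiler. Those 5 arrays held the highest IGFBP2 values of Leghorn and broiler, so leaving them out widens the gap. In the main fit both differences were smaller and not called. Differences were fitted by limma over the whole table, and calls are those with a Benjamini-Hochberg adjusted p below 0.05. In Fayoumi against broiler 0 of the 12 member probe sets were called, beside 0.714% of all chicken probe sets, and 3 had an unadjusted p under 0.05 (IGFBP2, IGFBP4 and IGFBP5). In Leghorn against broiler 0 of 12 were called, beside 0% of all probe sets, and IGFBP5 had an unadjusted p under 0.05. In Fayoumi against Leghorn 0 of 12 were called, beside 0.626% of all probe sets, and IGFBP2 had an unadjusted p under 0.05. Without the 5 arrays that stood apart IGFBP2 was called in both Fayoumi comparisons, at background shares of 0.504% against broiler and 1.05% against Leghorn, and 0 members were called in Leghorn against broiler, at 0.00265%. Without those 5 and the arrays labelled Leghorn 2 and broiler 1 the same gene was called in both Fayoumi comparisons, at 2.09% against broiler and 2.53% against Leghorn, and no member in Leghorn against broiler, at 1.97%. Without the arrays labelled Leghorn 1 and Fayoumi 2 and 3, the 3 highest in the median deviation of the muscle markers, no member was called, at 0.366% in Fayoumi against broiler, 0% in Leghorn against broiler and 0.332% in Fayoumi against Leghorn. Without the arrays labelled Leghorn 2 and broiler 1, IGFBP5 was the 1 member called in Fayoumi against broiler, at a background share of 1.82%, and none was called in the other comparisons, at 1.75% for Leghorn against broiler and 1.44% for Fayoumi against Leghorn. The comparisons share arrays, so their results are not independent of each other.

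Neither ligand had a level that could be compared. IGF1 has 1 probe set here, and it was above background on 0 of 17 arrays. IGF2, which lies next to the insulin gene INS in the RefSeq gene order, has 3 probe sets. On 2 of them the value was 2.26 on all 17 arrays. The third was nominally above background on all 17, but 15 of them shared the value 2.40 within 0.001, and the others were Fayoumi 2 at 2.44 and Fayoumi 5 at 2.55. No fold is given for either ligand, and these values do not show that the transcripts were absent.

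**Figure D1:**
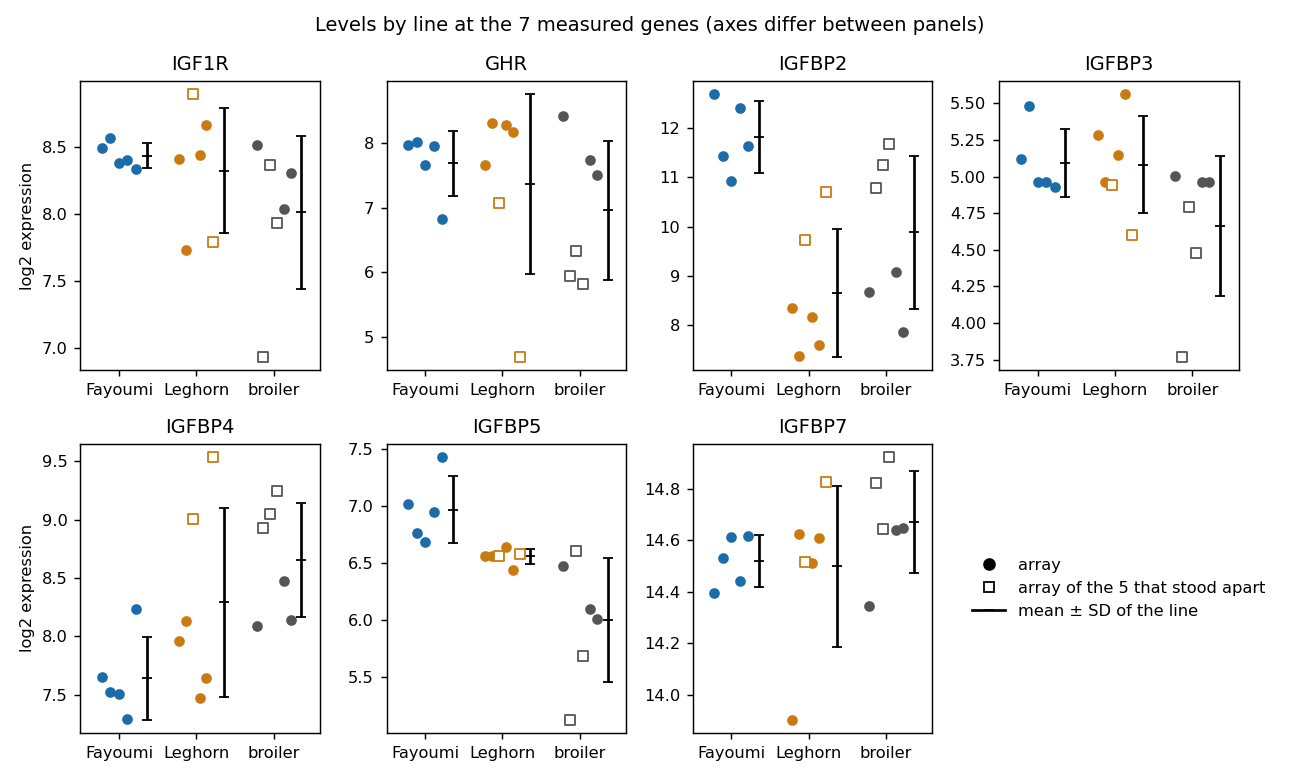
Log2 expression of IGF1R, GHR, IGFBP2, IGFBP3, IGFBP4, IGFBP5 and IGFBP7 on each of the 17 arrays, by line, with the mean ± SD of each line; open squares are the 5 arrays that stood apart. IGFBP2 lies between 10.93 and 12.70 in Fayoumi, and the open squares hold the highest Leghorn and broiler values of IGFBP2 and IGFBP4 and low values of GHR.

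Both receptors were measured and had line means whose order did not exceed the spread. IGF1R, the tyrosine kinase receptor of both IGFs, was at 8.49, 8.56, 8.37, 8.40 and 8.33 on Fayoumi arrays 1 to 5. It ran from 7.73 over a median of 8.42 to 8.89 in Leghorn and from 6.94 over 8.17 to 8.51 in broiler. The Fayoumi arrays lay within 0.23 of each other and inside the Leghorn range. The means were 8.43 ± 0.093 in Fayoumi (SD, n = 5), 8.32 ± 0.47 in Leghorn (SD, n = 6) and 8.01 ± 0.57 in broiler (SD, n = 6). The difference of Fayoumi from broiler was 0.42 (SE 0.26, 95% interval -0.15 to 0.98, limma's adjusted p = 0.603). It was 0.15 without the 5 arrays that stood apart. The lowest Leghorn and highest broiler values were on the arrays labelled Leghorn 2 and broiler 1. Without these 2 arrays, 4 of 5 Fayoumi and 4 of 5 Leghorn arrays lay above all 5 remaining broiler arrays. Over 28 alternatives the difference from broiler ran from 0.15 to 0.52 in Fayoumi and from 0.028 to 0.52 in Leghorn. The lowest adjusted p by limma was 0.289 and 0.267.

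GHR, the growth hormone receptor, has 2 probe sets that disagree in detection. One of them was above background on 3 arrays, Fayoumi 1 at 2.36, Leghorn 2 at 2.40 and Leghorn 5 at 2.42, and no difference is drawn from it. The main GHR probe set was at 7.97, 8.02, 7.67, 7.96 and 6.82 on Fayoumi arrays 1 to 5. In Leghorn it ran from 4.68 over a median of 7.92 to 8.31, and in broiler from 5.82 over 6.92 to 8.42. All lines overlapped, with means of 7.69 ± 0.50 in Fayoumi, 7.36 ± 1.40 in Leghorn and 6.96 ± 1.08 in broiler. The low Leghorn and broiler values were those of the arrays that stood apart, which held 4.68 to 7.07 at GHR against 7.50 to 8.42 on the other 7 arrays of those lines. The difference of Fayoumi from broiler was 0.73 (SE 0.65, 95% interval -0.66 to 2.12, limma's adjusted p = 0.672) on all arrays and -0.20 (SE 0.31, adjusted p = 1) without them. Against Leghorn it was 0.32 (SE 0.65, adjusted p = 1) and -0.42 (SE 0.29, adjusted p = 0.808). The order of the lines at GHR thus turned when these 5 arrays were left out. The highest of the remaining broiler values, 8.42, was on the array labelled broiler 1, which went against its label. Over 28 alternatives the sign against broiler turned in 1, that without the 5 arrays, and the sign against Leghorn in 4.

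IGFBP2 had the largest log2 difference between lines of the 7 measured genes. Its 1 probe set was at 12.70, 11.43, 10.93, 12.42 and 11.65 on Fayoumi arrays 1 to 5. Leghorn arrays 1 to 6 held 8.35, 7.36, 9.73, 8.16, 7.59 and 10.71, and broiler arrays 1 to 6 held 8.67, 10.78, 11.25, 11.68, 9.08 and 7.85. Every Fayoumi array lay above every Leghorn array, while broiler overlapped both lines. The means were 11.83 ± 0.72 in Fayoumi (SD, n = 5), 8.65 ± 1.31 in Leghorn (SD, n = 6) and 9.88 ± 1.56 in broiler (SD, n = 6). The difference of Fayoumi from Leghorn was 3.18 (9.05-fold, SE 0.76, 95% interval 1.55 to 4.81), with an unadjusted p of 0.000894 and limma's adjusted p = 0.0918. Against broiler it was 1.94 (3.84-fold, SE 0.76, 95% interval 0.31 to 3.57, adjusted p = 0.389). Leghorn differed from broiler by -1.24 (SE 0.73, 95% interval -2.79 to 0.32, adjusted p = 0.852).

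The spread of IGFBP2 within Leghorn and broiler followed the arrays that stood apart. On the 7 arrays of those lines that did not stand apart IGFBP2 lay between 7.36 and 9.08, and on the 5 that did between 9.73 and 11.68. Leaving these 5 out therefore removes the highest Leghorn and broiler values of this gene, although the arrays were set apart by the whole array and not by IGFBP2. The means of the remaining arrays were 11.83 ± 0.72 in Fayoumi (SD, n = 5), 7.86 ± 0.47 in Leghorn (SD, n = 4) and 8.53 ± 0.62 in broiler (SD, n = 3), with no overlap of Fayoumi with either line. In that subset 6.35% of all probe sets had no overlap between Fayoumi and broiler and 4.53% between Fayoumi and Leghorn, where IGFBP2 and IGFBP5 were the 2 members each time, and 1.48% between Leghorn and broiler, with 0 members. IGFBP2 was then 15.6-fold higher in Fayoumi than in Leghorn (log2 difference 3.96, SE 0.41, limma's adjusted p = 0.00286). It was 9.81-fold higher in Fayoumi than in broiler (log2 difference 3.29, SE 0.45, adjusted p = 0.0137). Leghorn differed from broiler by -0.67 (SE 0.47, adjusted p = 1). Without the arrays labelled Leghorn 2 and broiler 1 alone, the difference of Fayoumi was 2.92 from Leghorn (adjusted p = 0.116) and 1.70 from broiler (adjusted p = 0.352), and without both sets of arrays it was 3.80 (adjusted p = 0.00891) and 3.36 (adjusted p = 0.0277).

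IGFBP2 is also a product of liver in birds and mammals, so the liver markers were set beside it. Of the 5 liver markers on the array TTR alone was above background on all arrays, and the defining marker ALB did not exceed 3.53. The summed log2 level of the list was 6.19 to 7.69 in Fayoumi, 4.72 to 7.35 in Leghorn and 4.73 to 6.60 in broiler. Without the 5 arrays that stood apart it was 4.72 to 5.43 in Leghorn, below all of Fayoumi, and still 4.73 to 6.60 in broiler. The highest Leghorn levels, 7.35 and 7.14, were on the arrays labelled Leghorn 3 and 6, which also held the highest Leghorn values of IGFBP2. The other lines did not show this. The highest broiler level, 6.60, was on the array labelled broiler 1, with IGFBP2 at 8.67. The arrays labelled broiler 2, 3 and 4, highest of broiler at IGFBP2, held 5.40, 4.73 and 5.32. In Fayoumi the highest levels, 7.69 and 7.60, were on arrays 2 and 3, lowest of that line at IGFBP2. TTR, a thyroid hormone carrier, was at 6.61 ± 0.86 in Fayoumi, 4.62 ± 1.87 in Leghorn and 3.95 ± 1.37 in broiler. The median over the 5 genes of the log2 deviation from each gene's mean over all arrays was also taken. It was -0.0090 to -0.0039 in Fayoumi, -0.15 to 1.02 in Leghorn and -0.15 to -0.0090 in broiler. The arrays labelled Leghorn 3 and 6 held 1.02 and 0.14. The part of such cells in the IGFBP2 result was not tested.

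**Figure D2:**
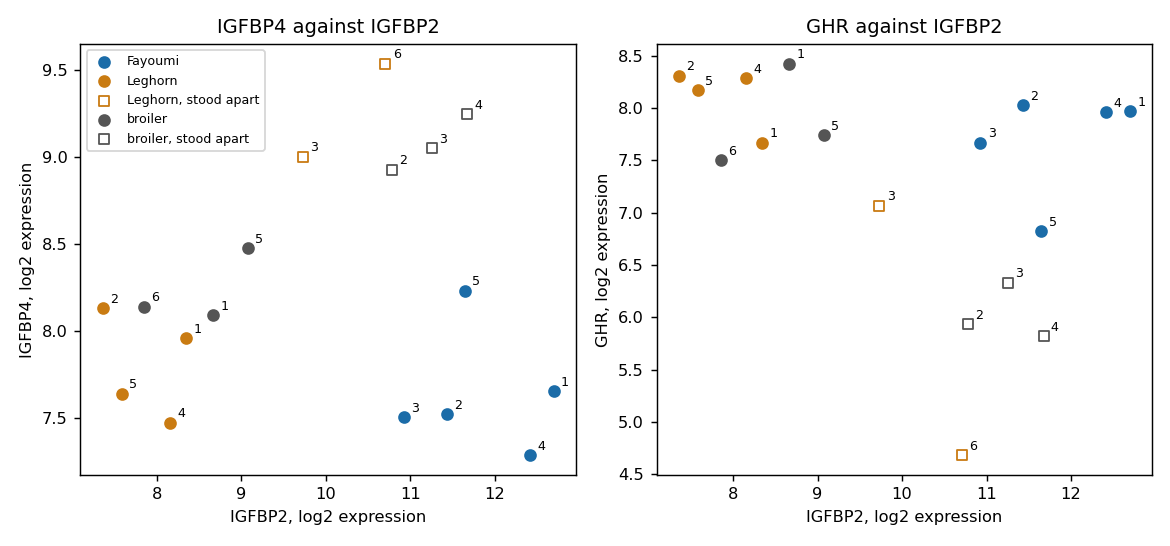
Log2 expression of IGFBP4 (left) and GHR (right) against IGFBP2 on each array, with the replicate number beside each point; open squares are the 5 arrays that stood apart. At IGFBP2 levels between 9.73 and 12.70 the Fayoumi arrays hold 7.29 to 8.23 at IGFBP4 and the open squares 8.93 to 9.54.

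IGFBP5, a binding protein that also attaches to extracellular matrix, was the member with the smallest adjusted p against broiler. IGFBP5 was at 7.02, 6.76, 6.68, 6.94 and 7.43 on Fayoumi arrays 1 to 5. In Leghorn it ran from 6.44 over a median of 6.56 to 6.64, where 3 arrays shared 1 value within 0.001, and in broiler from 5.12 over 6.05 to 6.61. Every Fayoumi array lay above every Leghorn and every broiler array, whereas Leghorn and broiler overlapped. Arrays that do not overlap occurred at 3.01% of all probe sets between Fayoumi and broiler, where IGFBP5 was the 1 member among 12, and at 2.54% between Fayoumi and Leghorn, where IGFBP2 and IGFBP5 were the 2. Between Leghorn and broiler it was 0.0186% of all probe sets and no member.

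The means of IGFBP5 were 6.96 ± 0.29 in Fayoumi (SD, n = 5), 6.56 ± 0.064 in Leghorn (SD, n = 6) and 6.0 ± 0.54 in broiler (SD, n = 6). Fayoumi differed from broiler by 0.97 (1.96-fold, SE 0.22, 95% interval 0.51 to 1.43, limma's adjusted p = 0.0580). Fayoumi differed from Leghorn by 0.41 (SE 0.22, 95% interval -0.053 to 0.87, adjusted p = 0.784), and Leghorn from broiler by 0.56 (SE 0.21, 95% interval 0.12 to 1.0, adjusted p = 0.852). The first of these was called once the array labelled broiler 1 or the array labelled broiler 3, the 2 highest broiler values, was left out (1.06 and 1.09, adjusted p = 0.0261 and 0.0315). It was also called without the arrays labelled Leghorn 2 and broiler 1 together (1.06, SE 0.22, adjusted p = 0.0327). With the 5 arrays that stood apart left out it was 0.78 (SE 0.17, adjusted p = 0.103). In the RefSeq gene order IGFBP5 and IGFBP2 are direct neighbours, and they were the members without overlap between Fayoumi and Leghorn. A link between their position and their levels was not tested.

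**Figure D3:**
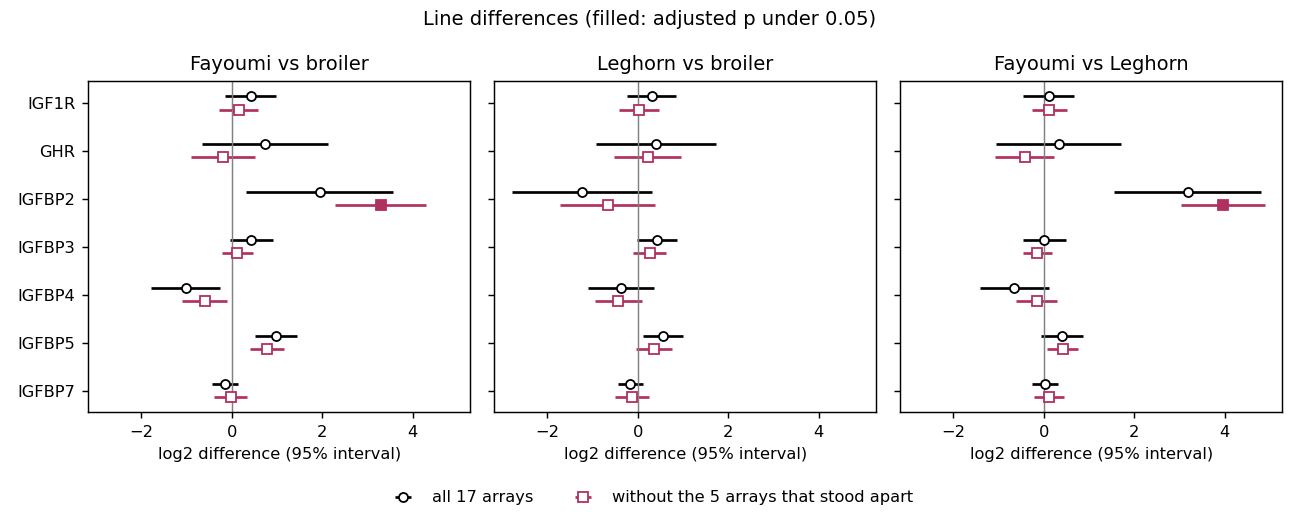
Log2 differences between lines with 95% intervals for the 7 measured genes, on all 17 arrays (circles) and without the 5 arrays that stood apart (squares); filled symbols have an adjusted p under 0.05. IGFBP2 is the 1 gene with filled symbols, at 3.29 in Fayoumi against broiler and 3.96 in Fayoumi against Leghorn.

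IGFBP4, known in mammals to restrain IGF action until the protease PAPPA cleaves it, had lower line means in Fayoumi than in the other lines, with no call. IGFBP4 was at 7.66, 7.52, 7.51, 7.29 and 8.23 on Fayoumi arrays 1 to 5. Leghorn ran from 7.47 over a median of 8.05 to 9.54, and broiler from 8.09 over 8.70 to 9.25. Fayoumi array 5 lay above the lowest broiler arrays, labelled broiler 1 and 6, and the other 4 Fayoumi arrays lay below all of broiler. The means were 7.64 ± 0.36 in Fayoumi (SD, n = 5), 8.29 ± 0.81 in Leghorn (SD, n = 6) and 8.66 ± 0.49 in broiler (SD, n = 6). Fayoumi differed from broiler by -1.02 (2.02-fold lower, SE 0.36, 95% interval -1.78 to -0.25, limma's adjusted p = 0.308), from Leghorn by -0.65 (SE 0.36, adjusted p = 0.802), and Leghorn from broiler by -0.36 (SE 0.34, adjusted p = 0.854). The arrays that stood apart held 8.93 to 9.54 and the other 7 Leghorn and broiler arrays 7.47 to 8.48, and without the 5 the difference of Fayoumi from broiler was -0.60 (adjusted p = 0.476). Without the arrays labelled Leghorn 2 and broiler 1 it was -1.13 (adjusted p = 0.203), and 4 of 5 Fayoumi arrays lay below all 5 remaining broiler arrays. The Leghorn arrays that did not stand apart, labelled 1, 2, 4 and 5, held 7.96, 8.13, 7.47 and 7.64, inside the Fayoumi range. Over the alternative settings the difference of Fayoumi from Leghorn ran from -0.81 to -0.051.

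IGFBP2 and IGFBP4 were both high on the Leghorn and broiler arrays that stood apart, whereas Fayoumi arrays were high at IGFBP2 and held 7.29 to 8.23 at IGFBP4. The plot of both genes shows this as separate groups of points. Such IGFBP4 levels were not particular to Fayoumi, since the Leghorn arrays that did not stand apart held 7.47 to 8.13. Over the whole table, 7.09% of the chicken probe sets had all 5 of these arrays above the other 7 Leghorn and broiler arrays, and 7.63% had all 5 below. Among the members IGFBP2 and IGFBP4 were of the first kind, and GHR and IGFBP3 of the second. Endothelial markers, 6 of 6 on the array and above background, had a summed log2 level of 13.27 to 13.97 on the 5 and 14.16 to 14.90 on the other 12. A second measure is the median over a list's genes of the log2 deviation from each gene's mean over all arrays. By it endothelial markers deviated by -0.52 to -0.0017 (median -0.21) on the 5 and by -0.40 to 0.49 (median 0.25) on the other 12. Macrophage markers, 7 of 7 above background, deviated by 0.066 to 1.26 (median 0.44) on the 5 and by -0.93 to 0.12 (median 0.031) on the other 12, and 5 of 6 smooth muscle and pericyte markers by -0.032 to 1.81 (median 0.26) and -0.77 to 0.11 (median -0.10). Adipocyte markers, 8 of 8, deviated by -0.23 to -0.12 (median -0.17) on the 5 and by -1.08 to 0.26 (median 0.13) on the other 12, and 5 of 6 T lymphocyte markers by -0.25 to 0.79 (median 0.56) and -0.52 to 0.62 (median -0.13). By this second measure the ranges overlapped in every one of these lists, the endothelial list included. In the adipocyte list the overlap came from 1 array, labelled Leghorn 1 (-1.08), which held the highest skeletal muscle markers. The next lowest of the 12 was Fayoumi 1 at -0.035, above all 5. The part of any of these cell types in the results was not tested.

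IGFBP3, the main carrier of circulating IGF1 in mammals and the neighbour of IGFBP1 in the gene order, had line means that differed by less than 0.5. IGFBP3 was at 5.12, 5.48, 4.96, 4.96 and 4.93 on Fayoumi arrays 1 to 5. It ran from 4.60 over a median of 5.05 to 5.56 in Leghorn and from 3.77 over 4.88 to 5.0 in broiler, and 5 of the 17 arrays shared 4.96 within 0.001. The lines overlapped, and differences from broiler were 0.43 (SE 0.22, limma's adjusted p = 0.525) for Fayoumi and 0.42 (SE 0.21, adjusted p = 0.852) for Leghorn. Fayoumi differed from Leghorn by 0.0086 (SE 0.22, 95% interval -0.46 to 0.48, adjusted p = 1). The 5 arrays that stood apart all lay below the other 7 Leghorn and broiler arrays at IGFBP3. Without them the difference of Fayoumi from broiler was 0.12.

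IGFBP7, a secreted protein of vessels and matrix, was well above background on every array, and was at 14.40, 14.53, 14.61, 14.44 and 14.62 on Fayoumi arrays 1 to 5. Leghorn ran from 13.90 over a median of 14.56 to 14.82 and broiler from 14.34 over 14.64 to 14.92. The lowest value was on the array labelled Leghorn 1, the array with the highest skeletal muscle markers, and the next Leghorn value was 14.51. The lines overlapped, at means of 14.52 ± 0.10 in Fayoumi, 14.50 ± 0.31 in Leghorn and 14.67 ± 0.20 in broiler. Fayoumi differed from broiler by -0.15 (SE 0.14, 95% interval -0.44 to 0.14, limma's adjusted p = 0.674), and Leghorn from broiler by -0.17 (SE 0.13, adjusted p = 0.852). Fayoumi differed from Leghorn by 0.021 (SE 0.14, adjusted p = 1). With the arrays that stood apart left out, the difference of Fayoumi from broiler was -0.023. Without the arrays labelled Leghorn 2 and broiler 1 all 5 Fayoumi arrays lay below all 5 remaining broiler arrays, and the difference was -0.22 (SE 0.14, 95% interval -0.51 to 0.082, adjusted p = 0.516). In that setting lines without overlap occurred at 6.72% of all probe sets between Fayoumi and broiler, where IGFBP5 (higher) and IGFBP7 (lower) were the members. They occurred at 4.64% between Fayoumi and Leghorn, where IGFBP2 and IGFBP5 (both higher) were the members, and at 2.42% between Leghorn and broiler, with no member.

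Over the 9 member probe sets above background on at least 1 array, the median log2 difference was 0.42 in Fayoumi against broiler, 0.059 in Leghorn against broiler and 0.036 in Fayoumi against Leghorn. The medians of all probe sets above background were -0.016, -0.0043 and -0.00024 in the same order. These 9 include near-background probe sets of IGF2 and GHR, from which no difference is read. The median of 0.059 is the value of the second GHR probe set, and 0.036 that of the IGF2 probe set. Neither median therefore describes a shift of the measured members. Without the 5 arrays that stood apart the first median was 0.036, again the value of that IGF2 probe set.

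**Figure D4:**
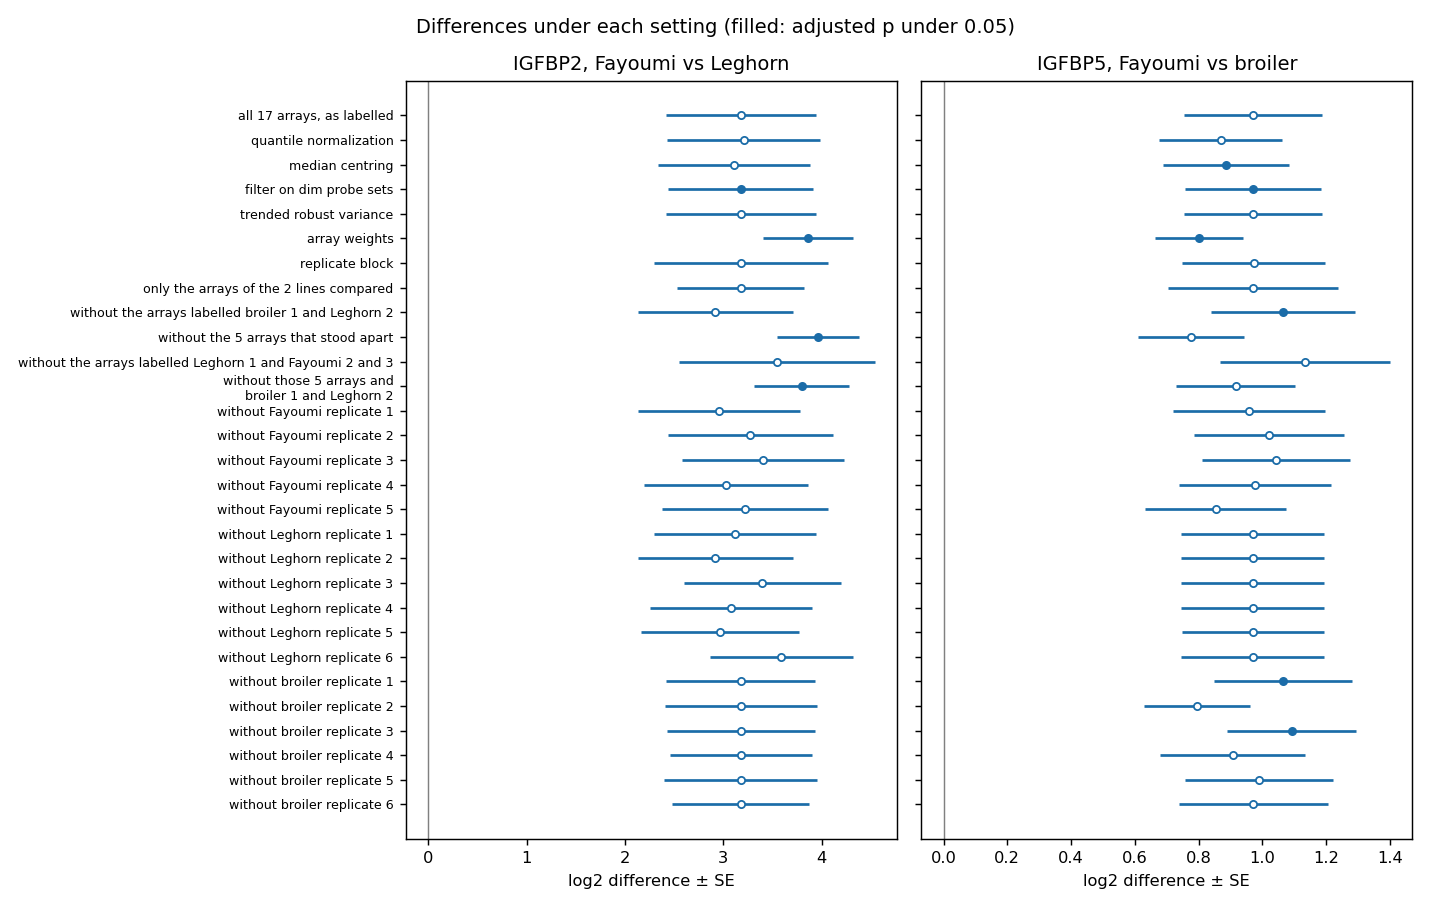
Log2 difference ± SE of IGFBP2 in Fayoumi against Leghorn (left) and IGFBP5 in Fayoumi against broiler (right) under each way of processing the arrays, filled where the adjusted p is under 0.05. IGFBP2 stays between 2.92 and 3.96 and IGFBP5 between 0.78 and 1.13, while the adjusted p moves across the threshold.

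Relations between the 7 measured genes were computed over the 12 arrays that did not stand apart, for 21 pairs, over which p-values were adjusted. No pooled value is given for the 6 pairs with IGFBP2, whose Fayoumi arrays form a cluster of their own. At IGFBP5 the Fayoumi arrays also lay above all others of the 12, by smaller gaps, so pooled values with IGFBP5 include the line difference. In the 15 pairs without IGFBP2 Pearson's r ran from -0.56 to 0.59 and 0 had an adjusted p under 0.05 by permutation for r, the lowest being 0.330. IGF1R and IGFBP3 had r = 0.590 (permutation p = 0.0383, adjusted p = 0.330) and Spearman's rho = 0.827 (permutation p = 0.00173, adjusted p = 0.0363). Its r was 0.819 without the 2 arrays farthest from the median of IGF1R, and 0.701 with the line means removed. The arrays that shared 4.96 at IGFBP3, Fayoumi 3 and 4, Leghorn 2 and broiler 5 and 6, were all among the 12. They are therefore tied in rank at IGFBP3. The genes most like each member in pattern were searched among 14951 probe sets over the same 12 arrays, and these r values only describe arrays that share a line and a normalization. They were TXLNA for IGFBP2, given without its r because of that cluster, FGFR1OP2 for IGFBP5 (r = 0.941), ADAM12 for IGFBP4 (0.887), COBL for GHR (0.923), MKRN4P for IGF1R (0.948), STK38L for IGFBP3 (0.931) and TRAPPC2L for IGFBP7 (0.975).

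The wider pathway was read from a list of 38 further genes of growth hormone and IGF signalling, of which 34 were on the array with 61 probe sets. None of the 61 was called in any of the 3 comparisons on all arrays. Of all chicken probe sets 0.714% were called in Fayoumi against broiler, 0% in Leghorn against broiler and 0.626% in Fayoumi against Leghorn. The median log2 difference of the 49 above background on at least 1 array was 0, 0.0075 and -0.0075 in the same order. GH, GHRHR, LIN28B, PAPPA2 and STC1 were above background on no array. PTPN2, a phosphatase that dampens JAK-STAT signals, had the smallest adjusted p of the list in both Fayoumi comparisons. The probe set concerned was at 8.65 ± 0.14 in Fayoumi, 8.02 ± 0.36 in Leghorn and 8.01 ± 0.28 in broiler, a difference of 0.64 from broiler (SE 0.17, limma's adjusted p = 0.125) and 0.63 from Leghorn (SE 0.17, adjusted p = 0.135). The other PTPN2 probe set differed by 0.28 from broiler (adjusted p = 0.566).

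ADAM12, a protease that in humans cleaves IGFBP3 and IGFBP5, was at 4.58 ± 0.35 in Fayoumi, 5.24 ± 0.78 in Leghorn and 5.97 ± 0.75 in broiler on the brightest of its 5 probe sets. Fayoumi differed from broiler by -1.39 (SE 0.40, limma's adjusted p = 0.175), and the arrays that stood apart held 5.71 to 7.24. A second ADAM12 probe set differed by -0.65 in Fayoumi (adjusted p = 0.361) and -0.56 in Leghorn (adjusted p = 0.852) from broiler. Without the arrays that stood apart it differed by -0.089 in Fayoumi and -0.095 in Leghorn. The brightest then differed by -0.91 in Fayoumi (limma's adjusted p = 0.304). The remaining ADAM12 probe sets differed by -0.27 to -0.013 in Fayoumi from broiler on all arrays. DLK1, a membrane protein that holds mammalian preadipocytes undifferentiated, was at 7.03 ± 0.89 in Fayoumi and 8.61 ± 1.26 in Leghorn (difference -1.58, SE 0.58, adjusted p = 0.409), and at 8.29 ± 0.62 in broiler. IGF2BP2, an RNA-binding protein named for its binding of IGF2 mRNA, was at 5.64 ± 0.73 in Leghorn and 4.65 ± 0.44 in broiler (difference 0.98, SE 0.30, adjusted p = 0.852). Without the arrays labelled Leghorn 2 and broiler 1 that difference was 1.28 (SE 0.29, adjusted p = 0.0496). It was the 1 call among the 61 probe sets of the list, beside 1.75% of all chicken probe sets called there. So the call is not read as a result about the list. IGFALS, which holds IGF1 and IGFBP3 in a complex in blood, lay near background, with 2.61 ± 0.31 in Leghorn against 2.35 ± 0.0043 in broiler (adjusted p = 0.852), and PAPPA was above background on 4 arrays.

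Of 12 further proteins with a domain like that of the binding proteins, 9 were on the array with 15 probe sets. Of these 1 was called, in Fayoumi against Leghorn, beside 0.626% of all chicken probe sets. It was a probe set of CRIM1, a membrane protein that binds growth factors of the BMP family. CRIM1 was at 8.71 ± 0.14 in Fayoumi and 10.13 ± 0.32 in Leghorn, and fell by 1.42 on the log2 scale in Fayoumi (SE 0.30, limma's adjusted p = 0.0496), with broiler at 9.54 ± 0.77. The call held with the 5 arrays that stood apart left out (-1.33, adjusted p = 0.00706) and without the arrays labelled Leghorn 2 and broiler 1 (-1.55, adjusted p = 0.0135). In these settings 1.05% and 1.44% of all chicken probe sets were called between Fayoumi and Leghorn. Against broiler CRIM1 differed by -0.83 in Fayoumi on all arrays (adjusted p = 0.334) and by 0.60 in Leghorn (adjusted p = 0.852). Without the 5 arrays it differed by -1.34 in Fayoumi (adjusted p = 0.0130), beside 0.504% of all chicken probe sets called there. The second CRIM1 probe set went the other way in Fayoumi against Leghorn, by 0.38 (adjusted p = 0.834). WISP3, now named CCN6, was at 6.30 ± 0.34 in Fayoumi, 5.12 ± 1.10 in Leghorn and 4.97 ± 1.31 in broiler, with 3.25 to 5.0 on the arrays that stood apart (adjusted p = 0.490 against broiler and 0.782 against Leghorn). CCN3, a matrix-associated protein, had 10.06 ± 1.22 in Leghorn against 9.42 ± 0.63 in broiler (adjusted p = 0.852), its second probe set lay at background, and WISP2 was above background on 1 array.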

How the data were processed

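Expression was measured on 17 Affymetrix arrays, 1 per sample. The authors deposited 1 log2 value per probe set and array. Per the submitters' processing notes, RMA, GCRMA and R 2.13.2 were used, and it is not given there whether RMA or GCRMA produced this table. The log2 scale was read from the deposited values, which run from 2.26 to 16.2, and the many values at the floor compress differences of dim genes. Array medians lay between 2.43 and 2.54. Probe-level data and sequences were not used here.

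Of 38535 probe sets, 37693 designed on chicken transcripts were tested. Left out were 96 hybridisation controls, 57 reporters and 689 probe sets named after accessions. Gene symbols came from the platform annotation, where 27166 chicken probe sets have 1 symbol. Of these, 26851 matched a gene number in RefSeq's gene list for bGalGal1.mat.broiler.GRCg7b, which gave names and neighbours only. Limma 3.58.1 in R 4.3.3 fitted 1 model with the line as factor to all 17 arrays (lmFit, contrasts.fit, eBayes), two-sided, adjusted by Benjamini-Hochberg over the 37693 probe sets. The fit was tested on simulated data. Fold changes are 2 to the power of the log2 difference. Relations used permutation tests with 100000 resamples. No gene level was set against another gene's.

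The members, lists and alternatives were chosen with earlier results of these data known. From each list the 3 probe sets with the smallest adjusted p per comparison were named, whether called or not, and the 1 gene most like each member was named by Pearson's r. Alternatives covered quantile normalization, median centring, a filter on dim probe sets, a trended robust variance, array weights, a replicate block, pairwise fits and leaving out arrays. Samples that share a replicate number had deviations correlated between -0.79 and 0.60, so the numbers were not taken as pairs.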

Additional observations from a re-analysis of the deposited data

Results flagged for a closer look

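Within a line, 6 of 25 groups of values tested had 1 array far from the others by Dixon's criterion. Chance meets it in about 1 of 20 groups if values vary freely. In 3 of the 6 most arrays shared 1 value near background. That rate does not hold for such groups, and the count is not read as an excess. IGF1R was at 6.94 on the array labelled broiler 2, and the other broiler arrays held 7.93 to 8.51. GHR was at 4.68 on the array labelled Leghorn 6, with the next Leghorn value at 7.07. Both arrays are among the 5 that stood apart. IGFBP7 was at 13.90 on the array labelled Leghorn 1, the one with the highest skeletal muscle markers. The other 3 lay near background, with the second GHR probe set at 2.36 on Fayoumi 1, IGF1 at 2.29 on Fayoumi 5 and an IGF2 probe set at 2.55 on Fayoumi 5. The causes were not tested.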

How the results depend on the processing

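Each result was recomputed under 28 alternatives. The count of probe sets called in Fayoumi against broiler, 269 on all arrays, was 505 after a filter on dim probe sets, 1319 with array weights, 141 with the replicate block, 686 without the arrays labelled Leghorn 2 and broiler 1, 138 without Leghorn 1 and Fayoumi 2 and 3, 787 without the first pair and the 5 arrays that stood apart, and 148 to 613 with 1 array left out. In Leghorn against broiler, 0 on all arrays (1840 at an unadjusted p under 0.05), it was 9 with array weights, 661 without Leghorn 2 and broiler 1, 1 without the 5 arrays, 742 without both sets and 0 to 118 with 1 array left out, 118 being without broiler 1. In Fayoumi against Leghorn, 236 on all arrays, it was 426, 2042 and 139 with the filter, array weights and replicate block, 544 without Leghorn 2 and broiler 1, 397 without the 5 arrays, 125 without Leghorn 1 and Fayoumi 2 and 3, 953 without both sets and 158 to 429 with 1 array left out.

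Members called in Fayoumi against broiler were 0 in the main fit, and shares of all tested probe sets called stand in brackets. IGFBP5 was called with median centring (0.992%), the filter (2.38% of the 21177 kept) and without Leghorn 2 and broiler 1 (1.82%). IGFBP2 was called without the 5 arrays (0.504%) and without both sets (2.09%), and both genes with array weights (3.50%). With 1 array left out, IGFBP5 was called without broiler 1 (1.63%) or broiler 3 (0.512%). In Fayoumi against Leghorn IGFBP2 was called with the filter (2.01%), array weights (5.42%), without the 5 arrays (1.05%) and without both sets (2.53%). No member was called in these 2 comparisons under the other alternatives. In Leghorn against broiler 0 members were called under all, where the highest share was 1.97%. IGFBP2 kept its direction throughout, at 2.92 to 3.96 (adjusted p 0.000164 to 0.324) in Fayoumi against Leghorn and 1.53 to 3.36 (adjusted p 0.00366 to 0.663) in Fayoumi against broiler. IGFBP5 kept 0.78 to 1.13 against broiler (adjusted p 0.00407 to 0.200), and IGFBP4 -1.16 to -0.60 (adjusted p 0.0608 to 0.733).

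Directions turned in differences that no alternative called. GHR in Fayoumi against broiler was -0.20 without the 5 arrays. Against Leghorn it was -0.37 with array weights, -0.42 without the 5 arrays, -0.35 without both sets and -0.21 to 0.54 with 1 array left out. IGF1R in Fayoumi against Leghorn was -0.0065 without Leghorn 2 and broiler 1, -0.071 without both sets and -0.0065 to 0.22 with 1 array left out. IGFBP3 there was -0.038 with quantile normalization, -0.060 with centring, -0.15 with array weights, -0.0094 with the replicate block, -0.016 without Leghorn 2 and broiler 1, -0.15 without the 5 arrays, -0.039 without Leghorn 1 and Fayoumi 2 and 3, -0.24 without both sets and -0.090 to 0.10 with 1 array left out. IGFBP7 there was -0.047 with centring, -0.024 with array weights, -0.13 without Leghorn 1 and Fayoumi 2 and 3 and -0.098 to 0.087 with 1 array left out. The cause was not tested. The replicate block changed no call on a member, and 3 of 17 arrays correlated best with their own number. Signal over background limits IGF1, IGF2 and the second GHR probe set, for which no difference can be read.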
